A study of Mus musculus with 6 samples.

Results

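The 42 genes described here encode the machinery of G2 and mitosis, and they were taken by name from a list of mitotic genes that was drawn up with earlier results of these data known. All 42 were found among the 23381 genes of the deposited table, and 40 of them were expressed high enough to be tested. RNA came from whole mammary tumours that 4T1 cells, a transplantable mouse mammary carcinoma line, had formed in the inguinal mammary fat pad of Balb/c mice, 10 weeks old per the labels. Mice had received 500000 cells and then, once tumours were established, either Vismodegib at 2 mg per mouse or DMSO, the vehicle, 3 times a week over 3 weeks. There were 3 Vismodegib and 3 DMSO libraries. Every tumour, treated or not, was the same injected line in the same strain, so the drug was the only labelled difference. Vismodegib inhibits Smoothened, the receptor-like protein that relays Hedgehog signals, in tumour and host cells alike. Whether each library was a separate animal is not stated in the labels, and p-values here reflect only how far these 6 samples spread.

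Cells that commit to division build up cyclin B and its kinase Cdk1 in G2, condense their chromosomes, attach them to a spindle through kinetochores, and hold at the spindle checkpoint until every kinetochore is attached. The anaphase-promoting complex (APC/C) then marks securin and cyclin B for destruction, the chromosomes separate, and cytokinesis divides the cell. The genes for these steps are transcribed together, late in the cycle, and are nearly silent in resting cells, so their RNA in a tumour is widely used as a measure of how many cells are dividing. In several tissues Hedgehog signalling is known to raise G1 cyclins and Mycn. In RNA from whole tumours, fewer dividing cells and less RNA per dividing cell cannot be told apart.

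The steps between low values imply totals of about 41630951 to 57993595 reads in the Vismodegib libraries and 34843318 to 40452589 reads in the DMSO libraries. Among member values, Kif20b in DMSO replicate 1 rested on the fewest reads, about 42. Birc5 in Vismodegib replicate 3 rested on the most, about 9894. Values are RPKM, reads scaled to transcript length and to the library's total, which makes levels of different genes comparable per length. Their sum over all genes was 367695 to 385764 RPKM in the Vismodegib libraries and 324967 to 432898 RPKM in the DMSO libraries, so DMSO replicate 1 had the lowest sum and DMSO replicate 2 the highest. The tissue label was checked against 10 epithelial genes, among them Epcam, Krt8 and Krt18. All 10 were expressed in every library, with a summed level of 2880.0 to 3065 RPKM in Vismodegib tumours and 1864 to 3101 RPKM in DMSO tumours.

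No mitotic gene differed between Vismodegib and DMSO tumours by more than the spread between libraries. By limma's test the smallest adjusted p of a member was 0.99995, and 0% of all 11818 genes had one under 0.05. At an unadjusted p under 0.05 there were 0 members of 40, against 2.25% of all genes. Of the 40 members, 32 had a Vismodegib minus DMSO difference below 0, where 41.6% of all genes did. Their median difference was -0.16 on the log2(RPKM + 0.5) scale, beside 0.05 for all genes. In no member did the 3 Vismodegib values lie all above the 3 DMSO values, against 4.29% of all genes, or all below them, against 0.745%. Both the sign and the size of the median rested on single DMSO libraries: without DMSO replicate 2 it was 0.13, with 10 members below 0 and 35.1% of all genes, and without DMSO replicate 1 it was -0.51, with 39 members below 0 and 50.2% of all genes. Median-ratio scaling put 37 members below 0 (all genes 50.8%), quantile scaling 36 (all genes 52.6%) and removal of GC and length trends 38 (all genes 53.1%). Scaling to epithelial genes put 40 members below 0, as it did 93.7% of all genes.

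The width of the intervals limits what this comparison could show. The 95% intervals of the differences had a median lower bound of -0.97 and a median upper bound of 0.67. In 19 of 40 members the interval reached below -1, which leaves a 2-fold lower level inside it. In 1 member, Ect2, the interval reached above 1. Both counts are minimums for 2-fold changes in RPKM, because this scale understates the change in low genes. In Cenpf, with a DMSO mean of 1.15 RPKM, a lower bound of -0.69 already leaves a 2-fold lower level inside the interval.

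**Figure D1:**
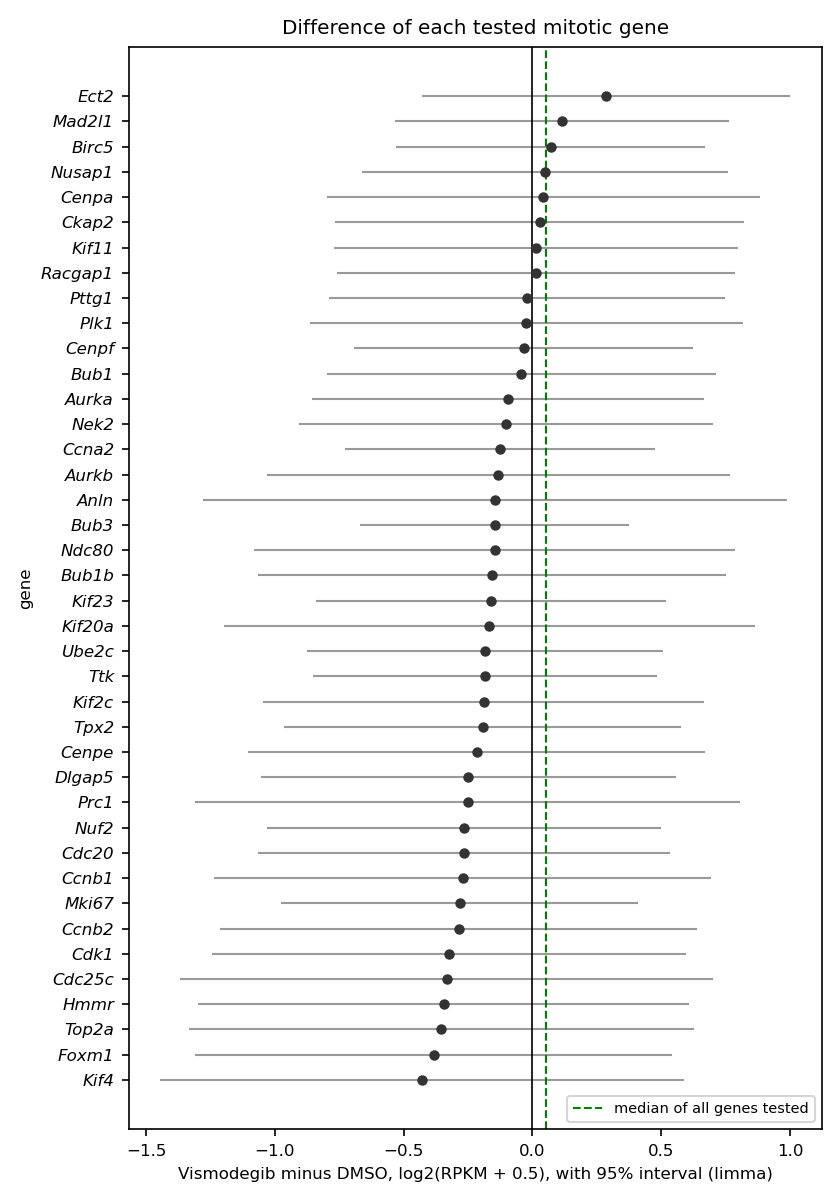
Vismodegib minus DMSO difference of the 40 tested mitotic genes on the log2(RPKM + 0.5) scale (points) with 95% intervals from limma (bars), ordered by difference; the dashed line is the median of all genes tested, 0.05. Every interval crosses 0, and the points run from -0.43 in Kif4 to 0.29 in Ect2.

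The largest differences between tumours lay within the DMSO group. DMSO replicate 1 held the lowest value of the 6 libraries in 35 of 40 members, and DMSO replicate 2 the highest in 32 of 40, against 31.5% and 29.8% of all genes. Summed over the 40 members, the level was 471, 471 and 506 RPKM in Vismodegib replicates 1, 2 and 3 and 344, 795 and 547 RPKM in DMSO replicates 1, 2 and 3. The 3 treated tumours stood close together, between a low and a high control. In 34 of 40 members all 3 Vismodegib values lay between the lowest and the highest DMSO value, which 4133 of 11818 genes did. The exceptions were Cdc25c, Bub3, Ttk, Kif23, Hmmr and Ect2.

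The median member was 2.70-fold higher in DMSO replicate 2 than in DMSO replicate 1, and the fold ran from 1.04 in Bub3 to 5.91 in Kif4. The median over all genes tested was 1.18. On the log2 scale the median SD of the members was 0.20 among Vismodegib libraries and 0.66 among DMSO libraries, and the SD was smaller among Vismodegib libraries in 39 of 40 members. Over all genes the median SDs were 0.28 and 0.38, and 64.8% of genes had the smaller SD among Vismodegib libraries. The difference in spread between the groups was not tested. With each library's values divided by their sum, the median fold between DMSO replicates 2 and 1 was 2.03, and 28 of 40 members had all Vismodegib values between the DMSO extremes. With median-ratio scaling these were 2.28 and 26 of 40. Over all genes the median fold was 0.887 with sum scaling and 0.997 with median-ratio scaling. Under either scaling 35.6% of all genes had all Vismodegib values between the DMSO extremes. With each library scaled to 10 epithelial genes the fold was again 2.70, but only 4 of 40 members had all Vismodegib values between the DMSO extremes, against 23.9% of all genes, and only 4 were lowest in DMSO replicate 1. DMSO replicate 1 was the lowest library in 29 of 40 members with sum scaling and in 28 with median-ratio scaling. With GC and length trends removed it was lowest in 31, and 30 members had all Vismodegib values between the DMSO extremes. The shares of all genes lowest in DMSO replicate 1 were not computed for rescaled values. Both patterns thus depended on the scaling: they held in most members under these 3 scalings, but not under epithelial scaling.

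**Figure D2:**
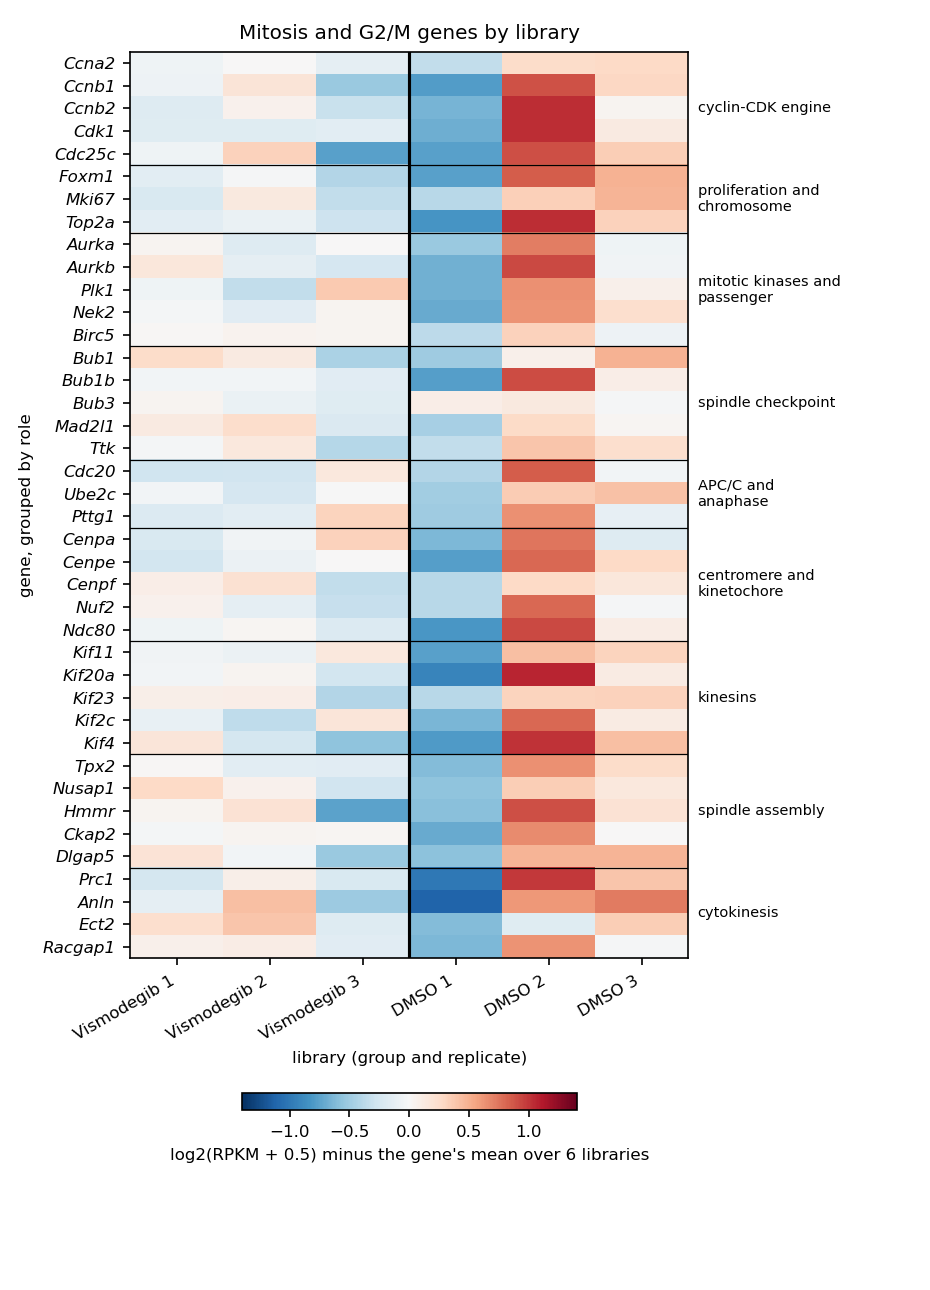
Heat map of the 40 tested mitotic genes (rows, grouped by role) in the 3 Vismodegib and 3 DMSO libraries (columns); colour gives log2(RPKM + 0.5) minus the gene's mean over the 6 libraries. The DMSO replicate 1 column is lowest in 35 rows and the DMSO replicate 2 column highest in 32, while most cells of the Vismodegib columns are paler.

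The mitotic genes also share promoter letters, which the rule that chose them did not use. Promoters of late cell cycle genes are known for the cell cycle genes homology region (CHR), a short element contacted by the MuvB core of the DREAM and MYB-MuvB complexes, and for CCAAT boxes, bound by NF-Y. RefSeq promoter windows (GRCm38.p6, 250 bases before to 50 after the start) were matched for 35 of the 42 members. The CHR letters TTTGAA or TTCGAA, on either strand, were in 27 of 35 members (77.1%), against 21.7% of 27025 genes with a window and 16.2% of the 8838 of these that were tested. CCAAT, on either strand, was in 25 members (71.4%), against 41.1% and 42.6%, and 17 members (48.6%) held at least 2 copies, against 13.3% and 16.7%. CHR and CCAAT letters occurred together in 22 members (62.9%), against 8.61% and 6.61%. For E2F the letters TTCCCGC, or the variant TTGGCGC, or the variant TTCGCGC, on either strand, were in 5 members (14.3%), against 9.20% and 17.1%. A base at the end of CCAAT can also begin TTTGAA, and TTCGAA reads the same on both strands.

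Promoters of 5 genes show what the shares describe, each from 180 bases before to 20 bases after the start, 5′ to 3′ on the gene's own strand, with CHR and CCAAT letters in capitals (their reverse complements TTCAAA and ATTGG included). Top2a, Cdk1, Ccnb2 and Cdc20 are examples picked because they hold both sets of letters, and Birc5 because its window held neither set of letters.
Top2a promoter, chr11:99024170-99024369, minus strand: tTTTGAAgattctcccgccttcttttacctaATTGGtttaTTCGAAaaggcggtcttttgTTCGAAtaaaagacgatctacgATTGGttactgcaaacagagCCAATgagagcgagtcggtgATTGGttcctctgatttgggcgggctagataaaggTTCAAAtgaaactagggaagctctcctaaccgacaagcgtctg
Cdk1 promoter, chr10:69352893-69353092, minus strand: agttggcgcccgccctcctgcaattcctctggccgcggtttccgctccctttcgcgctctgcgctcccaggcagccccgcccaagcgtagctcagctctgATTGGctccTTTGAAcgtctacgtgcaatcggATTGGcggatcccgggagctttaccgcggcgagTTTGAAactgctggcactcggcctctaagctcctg
Ccnb2 promoter, chr9:70421535-70421734, minus strand: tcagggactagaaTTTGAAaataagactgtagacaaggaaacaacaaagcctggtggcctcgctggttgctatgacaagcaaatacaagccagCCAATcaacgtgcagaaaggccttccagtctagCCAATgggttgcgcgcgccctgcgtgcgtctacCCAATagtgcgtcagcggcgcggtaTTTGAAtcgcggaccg
Cdc20 promoter, chr4:118437324-118437523, minus strand: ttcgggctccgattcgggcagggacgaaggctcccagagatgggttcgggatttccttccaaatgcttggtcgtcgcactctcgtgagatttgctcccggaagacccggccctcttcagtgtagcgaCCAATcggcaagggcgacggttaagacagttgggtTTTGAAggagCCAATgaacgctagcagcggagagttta
Birc5 promoter, chr11:117849057-117849256, plus strand: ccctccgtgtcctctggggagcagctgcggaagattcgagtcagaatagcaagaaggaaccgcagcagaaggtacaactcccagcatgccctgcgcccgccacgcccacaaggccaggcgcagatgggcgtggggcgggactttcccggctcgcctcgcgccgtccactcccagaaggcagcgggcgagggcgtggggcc
In Cdk1 the CHR letters nearest the start begin 15 bases before it, in Cdc20 18 bases before it and in Top2a 23 bases before it, while in Ccnb2 they begin at base 5 after the start. At least 1 set of CCAAT letters lies upstream of these in each of the 4 windows, and in Cdc20 another lies after them. Among tested members with a window, the 25 with CHR letters had a median fold of 2.64 between DMSO replicates 2 and 1, and the 8 without them 2.49; this difference was not tested. A match is a string of letters and not a bound site.

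**Figure D3:**
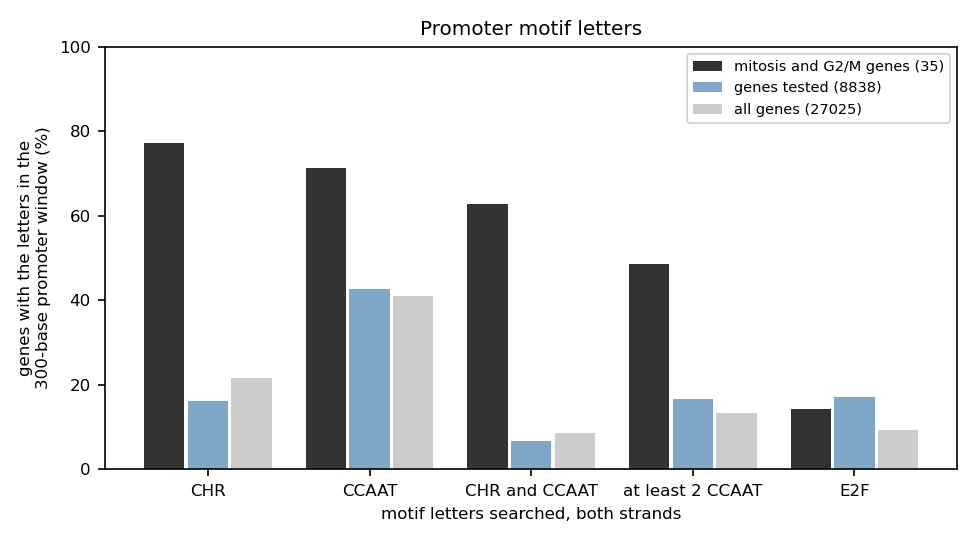
Share of genes whose 300-base RefSeq promoter window holds each set of letters on either strand, for 35 mitotic genes, 8838 genes tested and 27025 genes in all (bars, % of genes). CHR letters are in 77.1%, 16.2% and 21.7% of these, and E2F letters in 14.3%, 17.1% and 9.20%.

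Among the cyclins and their kinase, Ccna2 varied least between the DMSO tumours. Ccna2, the A-type cyclin of S phase and G2 (chr3:36564865-36572150, minus strand, GENCODE M21 on mm10), stood at 29.0, 30.3 and 27.7 RPKM in Vismodegib tumours 1, 2 and 3 and at 23.7, 36.4 and 36.8 RPKM in DMSO tumours 1, 2 and 3, in the order used throughout. The treated tumours lay inside the DMSO range. Cdk1, the kinase that drives entry into mitosis, was at 23.0, 23.0 and 23.5 RPKM in Vismodegib and at 16.03, 53.9 and 28.5 RPKM in DMSO, so 3 nearly equal treated tumours stood against a 3.36-fold range among controls. Ccnb1, the B-type cyclin that activates Cdk1, was at 4.11, 4.97 and 2.88 RPKM in Vismodegib and at 2.31, 8.48 and 5.42 RPKM in DMSO. Ccnb2, its close relative, was expressed at a higher level per length, at 20.5, 24.3 and 18.7 RPKM in Vismodegib and 14.6, 48.3 and 24.0 RPKM in DMSO. Cdc25c, the phosphatase that switches Cdk1 on, was at 0.775 to 2.19 RPKM in Vismodegib and 0.776 to 3.54 RPKM in DMSO, with Vismodegib replicate 3 as low as DMSO replicate 1. All 5 genes of this group had differences below 0, between -0.33 and -0.13, and none passed.

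The general markers of proliferation had the lowest group median. Mki67, the nuclear antigen used to score dividing cells (chr7:135689784-135716361, minus strand), was at 5.95, 7.76 and 5.39 RPKM in Vismodegib and 5.23, 8.91 and 9.95 RPKM in DMSO. Its difference was -0.28 (SE 0.305, adjusted p = 0.99995 by limma), with a 95% interval from -0.98 to 0.41. Unlike most members it was highest in DMSO replicate 3. Top2a, the topoisomerase that untangles chromosomes before they separate (chr11:98992943-99024189, minus strand), was at 16.2, 16.7 and 14.6 RPKM in Vismodegib and 9.91, 37.1 and 22.6 RPKM in DMSO. Its difference of -0.35 had an interval from -1.33 to 0.63. Foxm1, the transcription factor that activates many G2 genes (chr6:128362967-128376146, plus strand), was at 2.77, 3.09 and 2.22 RPKM in Vismodegib and 1.64, 6.01 and 4.57 RPKM in DMSO, a difference of -0.38. For each of these 3 genes DMSO replicate 1 lay below all treated tumours and the other DMSO libraries above them.

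Mitotic kinases and the chromosomal passenger subunit Birc5 differed little in mean. Birc5, or survivin, which targets Aurora B to centromeres (chr11:117849251-117855743, plus strand), was at 50.4, 51.6 and 51.2 RPKM in Vismodegib, a span of 1.2 RPKM, and at 38.6, 62.6 and 47.5 RPKM in DMSO. Its difference was 0.07. Plk1, which acts at centrosomes and kinetochores, ran from 22.6 to 37.4 RPKM in Vismodegib and from 17.9 to 45.1 RPKM in DMSO. The Aurora kinase genes followed the same libraries, Aurka at 9.40 to 11.03 RPKM in Vismodegib and 7.35 to 17.98 RPKM in DMSO, and Aurkb at 5.41 to 7.26 RPKM in Vismodegib and 3.85 to 12.7 RPKM in DMSO. Nek2, a centrosome kinase, was at 4.94 to 5.74 RPKM in Vismodegib and 3.22 to 8.88 RPKM in DMSO. In all 5 genes DMSO replicate 1 was the lowest and DMSO replicate 2 the highest library.

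The spindle checkpoint genes split by how far they varied. Bub3, a checkpoint protein that also has roles outside mitosis (chr7:131560222-131571895, plus strand), was at 18.8, 17.05 and 16.2 RPKM in Vismodegib and 19.5, 20.2 and 18.1 RPKM in DMSO. Among the members it had the smallest fold between DMSO replicates 2 and 1, and DMSO replicate 1 was not its lowest library. Bub1b, which inhibits the APC/C until kinetochores are attached, was at 2.78 to 3.06 RPKM in Vismodegib and 1.65 to 6.36 RPKM in DMSO. Bub1, the kinase that recruits checkpoint proteins, was at 1.73 to 3.14 RPKM in Vismodegib and 1.66 to 3.77 RPKM in DMSO, highest in DMSO replicate 3. Ttk, the kinase that starts checkpoint signalling, was at 1.03 to 1.74 RPKM in Vismodegib and 1.09 to 2.15 RPKM in DMSO. Mad2l1, which binds Cdc20 in the checkpoint complex, was at 1.59 to 2.37 RPKM in Vismodegib and 1.24 to 2.41 RPKM in DMSO, with a difference of 0.11.

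The genes of APC/C activity and anaphase were the most highly expressed members per length. Ube2c, the ubiquitin-conjugating enzyme of the APC/C (chr2:164769898-164778822, plus strand), was at 56.5, 49.5 and 57.9 RPKM in Vismodegib and 41.3, 74.6 and 77.1 RPKM in DMSO. Its exons share 592 bases with those of Tnnc2, a fast muscle troponin gene on the other strand, which was at 33.9, 23.0 and 10.0 RPKM in Vismodegib and 3.87, 46.1 and 0.494 RPKM in DMSO. Pttg1, or securin, the inhibitor of separase, ran from 50.3 to 71.1 RPKM in Vismodegib and from 40.6 to 89.8 RPKM in DMSO. Cdc20, the activator that the checkpoint restrains, was at 41.5, 42.1 and 56.1 RPKM in Vismodegib and 37.9, 91.3 and 49.4 RPKM in DMSO. Means over the 6 libraries were 59.5 RPKM for Ube2c, 59.4 for Pttg1, 53.1 for Cdc20 and 50.3 for Birc5, differences that lie within the spread between libraries. The next in order was Ccna2 at 30.6 RPKM.

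**Figure D4:**
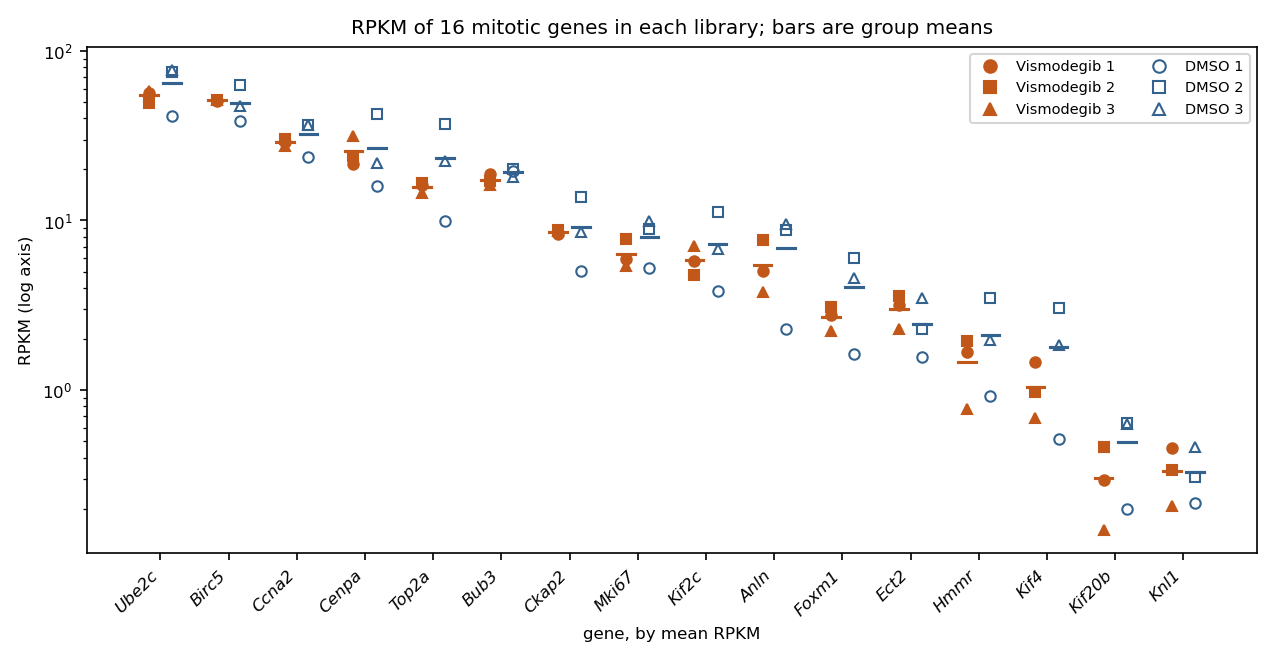
RPKM on a log axis of 16 mitotic genes in each library (symbols mark replicates; filled, Vismodegib; open, DMSO; bars, group means), ordered by mean level. In Top2a the treated tumours lie between 14.6 and 16.7 RPKM and the controls between 9.91 and 37.1 RPKM.

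At the centromere and kinetochore, Cenpa, the histone H3 variant that marks centromeres (chr5:30666777-30674830, plus strand), was at 21.5, 24.2 and 31.4 RPKM in Vismodegib and 16.02, 42.2 and 21.9 RPKM in DMSO. Its difference was 0.04. The motor protein gene Cenpe, which moves chromosomes to the spindle equator, was at 3.58 to 4.401 RPKM in Vismodegib and 2.36 to 8.03 RPKM in DMSO. Cenpf, a large kinetochore protein, was at 0.752 to 1.35 RPKM in Vismodegib and 0.715 to 1.44 RPKM in DMSO. Ndc80 and Nuf2 encode partners in the complex that grips microtubules. Ndc80 was at 1.38 to 1.69 RPKM in Vismodegib and 0.724 to 3.58 RPKM in DMSO, and Nuf2 was at 1.16 to 1.66 RPKM in Vismodegib and 1.09 to 3.12 RPKM in DMSO.

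Knl1 and Kif20b were below the mean of 0.5 RPKM required for testing. Knl1, the kinetochore scaffold that binds Bub1 and Bub3 (chr2:119047119-119105501, plus strand), was at 0.456, 0.337 and 0.206 RPKM in Vismodegib and 0.216, 0.309 and 0.463 RPKM in DMSO. Kif20b, a cytokinesis kinesin (chr19:34922361-34975745, plus strand), was at 0.293, 0.464 and 0.149 RPKM in Vismodegib and 0.200, 0.644 and 0.629 RPKM in DMSO. The groups overlapped in both genes, and an exact two-sided permutation test returned p = 1 for Knl1 and p = 0.3 for Kif20b, where 0.1 is the smallest p that 3 libraries against 3 allow.

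Of the kinesins, Kif4 had the difference farthest from 0 of all members. Kif4, a chromosome-bound motor that shapes the anaphase spindle (chrX:100625737-100727214, plus strand), was at 1.46, 0.981 and 0.686 RPKM in Vismodegib and 0.513, 3.03 and 1.84 RPKM in DMSO. The difference was -0.43 (SE 0.447, unadjusted p = 0.365, adjusted p = 0.99995 by limma), and the groups overlapped because DMSO replicate 1 was the lowest library. Its exons share 832 bases with Pdzd11 on the other strand. Kif2c, which takes apart wrongly attached microtubules (chr4:117159639-117182639, minus strand), was at 5.76, 4.76 and 7.07 RPKM in Vismodegib and 3.81, 11.3 and 6.79 RPKM in DMSO. Kif20a, needed for cytokinesis, was at 4.59 to 5.75 RPKM in Vismodegib and 2.70 to 12.2 RPKM in DMSO, a 4.51-fold range between controls. Kif11, the motor that pushes spindle poles apart, was at 4.13 to 4.97 RPKM in Vismodegib and 2.40 to 6.11 RPKM in DMSO, with a difference of 0.01. Kif23, which bundles the central spindle, was at 1.15 to 1.83 RPKM in Vismodegib and 1.17 to 2.23 RPKM in DMSO.

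Of the 5 spindle assembly genes, 4 were lowest in DMSO replicate 1 and 4 were highest in DMSO replicate 2. Ckap2, a microtubule-stabilizing protein (chr8:22168160-22185819, minus strand), was at 8.32, 8.77 and 8.70 RPKM in Vismodegib and 5.01, 13.7 and 8.55 RPKM in DMSO, a difference of 0.03. Hmmr, a spindle-associated protein also known as a hyaluronan receptor (chr11:40701395-40733422, minus strand), was at 1.69, 1.95 and 0.772 RPKM in Vismodegib and 0.919, 3.49 and 1.96 RPKM in DMSO. Its difference was -0.34, and Vismodegib replicate 3 was the lowest library. Tpx2, the activator of Aurora A, was at 7.59 to 8.61 RPKM in Vismodegib and 5.39 to 13.5 RPKM in DMSO. Nusap1, which links microtubules to chromosomes, was at 4.39 to 6.60 RPKM in Vismodegib and 3.47 to 6.96 RPKM in DMSO, with a difference of 0.05. Dlgap5, a spindle protein, was at 0.504 to 1.14 RPKM in Vismodegib and 0.471 to 1.5003 RPKM in DMSO.

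The cytokinesis genes included the member with the highest difference. Ect2, the exchange factor that activates RhoA at the cleavage furrow (chr3:27097222-27153878, minus strand), was at 3.19, 3.61 and 2.28 RPKM in Vismodegib and 1.57, 2.30 and 3.49 RPKM in DMSO. Its difference was 0.29 (SE 0.314, adjusted p = 0.99995 by limma), the groups overlapped, and it was the 1 member of 40 whose highest library was a treated one, against 47.0% of all genes. Anln, an actin-binding scaffold of the furrow (chr9:22332012-22389188, minus strand), was at 5.06, 7.67 and 3.76 RPKM in Vismodegib and 2.30, 8.79 and 9.57 RPKM in DMSO. Racgap1, the partner of Kif23 in centralspindlin, was at 3.90 to 4.78 RPKM in Vismodegib and 2.66 to 7.09 RPKM in DMSO, with a difference of 0.01. Prc1, which cross-links the antiparallel microtubules of the midzone, was at 1.94 to 2.56 RPKM in Vismodegib and 0.942 to 5.25 RPKM in DMSO, a 5.57-fold range between controls.

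Other genes of the cycle were read from 8 further lists with 135 genes, of which 129 were tested. None passed in either direction, and 83 had differences below 0 and 46 above. In lists of condensin and passenger, kinetochore, and spindle and centrosome genes, 41 of 52 tested genes were below 0, with a median of -0.16. Each of these lists had its median lowest in DMSO replicate 1 and highest in DMSO replicate 2. Incenp, the scaffold of the passenger complex, was at 5.88 to 6.39 RPKM in Vismodegib and 4.79 to 15.5 RPKM in DMSO. Kif18b, a kinesin that shortens astral microtubules, was at 1.31 to 1.73 RPKM in Vismodegib and 0.822 to 5.16 RPKM in DMSO, and Mad2l2, which binds a mitotic APC/C activator, was at 4.06 to 4.68 RPKM in Vismodegib and 4.35 to 9.18 RPKM in DMSO. Replication genes, 16 tested, gave 9 below and 7 above 0. Their median deviation from the 6-library mean was 0.04, 0.01 and -0.21 in Vismodegib and -0.56, 0.59 and 0.08 in DMSO. Cdt1, a licensing factor, was at 12.8 to 23.3 RPKM in Vismodegib and 12.4 to 47.3 RPKM in DMSO.

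The remaining 4 lists hold regulators. Of 18 APC/C subunits and regulators, 10 were below 0 and 8 above. Anapc13, a small subunit, was at 14.5 to 16.9 RPKM in Vismodegib and 10.8 to 13.1 RPKM in DMSO, all treated tumours above all controls, and it did not pass. The mitotic entry list, with 9 below 0 and 4 above, had median deviations of -0.65 in DMSO replicate 1 and 0.57 in DMSO replicate 2. In it Arpp19, an inhibitor of the phosphatase that opposes Cdk1, was at 19.8 to 27.01 RPKM in Vismodegib and 16.3 to 20.9 RPKM in DMSO. The DREAM and MYB-MuvB list had 4 below 0 and 10 above, with a median of 0.06. Within it Mybl2, the cell cycle MYB factor, was at 2.48 to 2.59 RPKM in Vismodegib and 1.67 to 5.66 RPKM in DMSO. G1 regulators had 10 below 0 and 6 above. Cdkn1b, the inhibitor p27, was at 4.21 to 9.87 RPKM in Vismodegib and 1.80 to 8.14 RPKM in DMSO. For G1 regulators the median deviation was -0.09 in DMSO replicate 1 and -0.07 in DMSO replicate 2, where the members had -0.63 and 0.65. The genes behind it differed: of 16 tested, 4 were lowest in DMSO replicate 1 and 4 highest in DMSO replicate 2. The G1 cyclin Ccnd1, chosen after its values were seen, was at 77.5 to 95.9 RPKM in Vismodegib and 56.7, 178 and 116 RPKM in DMSO. Of the 18 listed G1 genes, Mycn was among those not tested.

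**Figure D5:**
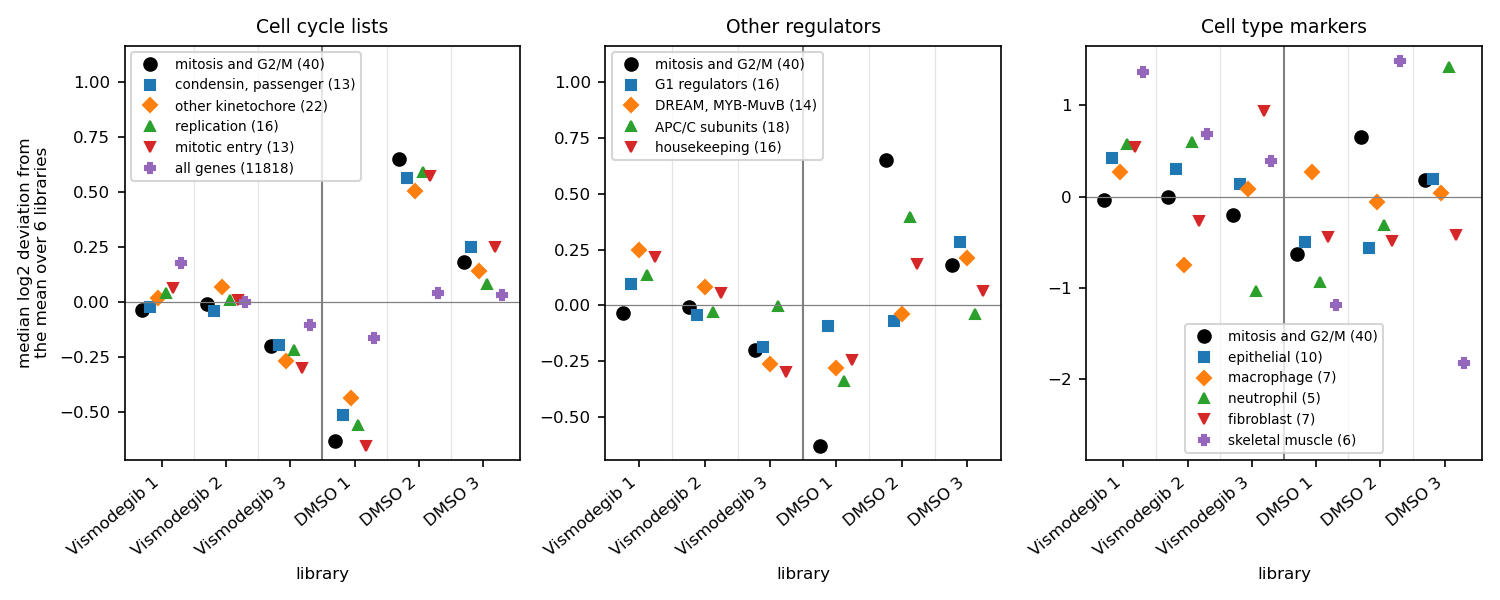
Median log2 deviation from the 6-library mean for gene lists in each Vismodegib and DMSO library (number of tested genes in brackets; 3 panels, cell cycle lists, other regulators and cell type markers). Mitotic genes stand at -0.63 in DMSO replicate 1 and 0.65 in DMSO replicate 2, and replication genes at -0.56 and 0.59.

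Marker genes of other cell types also differed between the libraries, and their part in the mitotic values was not tested. Over 10 epithelial genes the median deviation was 0.43, 0.30 and 0.14 in Vismodegib and -0.50, -0.56 and 0.19 in DMSO, and the genes behind these medians did not move as one. Their summed level was 1864 RPKM in DMSO replicate 1 and 2698 RPKM in DMSO replicate 2. Chosen after their values were seen, Krt8 was at 419 RPKM in DMSO replicate 1 and 936 RPKM in DMSO replicate 2, and Elf3, an epithelial transcription factor, at 34.4 and 8.34 RPKM in the same libraries. At an unadjusted p under 0.05 by limma there were 4 epithelial genes of 10, 3 fibroblast genes of 7, 3 adipocyte genes of 5 and 1 muscle gene of 6. All were higher in Vismodegib, and none passed after adjustment. The macrophage, neutrophil, T and NK, B and plasma, and endothelial lists had 0 such genes, and 2.25% of all genes tested were such. With each library scaled to its epithelial genes, 40 of 40 members were highest in DMSO replicate 2 and 4 lowest in DMSO replicate 1. The shares of all genes with these orders were not computed. Mean log2 epithelial levels were 6.83 and 6.84 in DMSO replicates 1 and 2 and 7.49 to 7.77 in the other libraries. This scaling therefore raised all genes most in DMSO replicates 1 and 2. The members' median difference was then -0.72 and that of all genes -0.51, and 18 of 40 members had all Vismodegib values below all DMSO values, as 3636 of 11818 genes did. The 7 macrophage genes deviated by 0.27, -0.75 and 0.08 in Vismodegib and 0.27, -0.06 and 0.04 in DMSO. Summed levels of 5 tested neutrophil genes ran from 15.5 to 106 RPKM in Vismodegib and from 22.6 to 212 RPKM in DMSO, highest in DMSO replicate 3. T and NK cell genes summed to 5.65 to 9.85 RPKM in Vismodegib and 7.25 to 9.68 RPKM in DMSO, and B and plasma cell genes to 3.86 to 61.8 RPKM in Vismodegib and 0.726 to 66.9 RPKM in DMSO. Fibroblast genes summed to 74.8 to 183 RPKM in Vismodegib and 61.9 to 77.0 RPKM in DMSO, and endothelial genes to 16.6 to 35.8 RPKM in Vismodegib and 13.9 to 28.7 RPKM in DMSO. Skeletal muscle genes summed to 68.2 to 127 RPKM in Vismodegib and 9.54 to 127 RPKM in DMSO, the highest control being DMSO replicate 2, and adipocyte genes to 8.27 to 32.7 RPKM in Vismodegib and 4.70 to 15.1 RPKM in DMSO. Ly6g, Ms4a1 and Adipoq were listed at 0 in at least 1 library.

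Within the treated group, Vismodegib replicate 3 stood highest in some members and lowest in most. It was the highest treated library in 10 members, among them Plk1, Cdc20, Pttg1, Cenpa and Kif2c, and the lowest in 26, among them Ccnb1, Cdc25c, Hmmr, Kif4 and Dlgap5. The median GC content of the longest transcript was 49.5% in these 10 genes and 45.7% in these 26. Across all 11613 genes with a transcript, the correlation of GC content with the deviation from the gene's mean was 0.29 in Vismodegib replicate 3, -0.22 and -0.35 in Vismodegib replicates 1 and 2, and -0.04, 0.21 and -0.15 in DMSO replicates 1, 2 and 3. Across the 40 tested members it was 0.36 in Vismodegib replicate 3, -0.28 and -0.64 in Vismodegib replicates 1 and 2, and 0.03, 0.27 and -0.15 in DMSO replicates 1, 2 and 3. These are correlations across genes, which are not independent replicates. Whether GC content had a part in the order of the members was not tested. With each library's trends on GC content and length removed, the members' median deviation was -0.25, -0.05 and -0.01 in Vismodegib and -0.47, 0.70 and 0.10 in DMSO, so DMSO replicate 1 remained the lowest and DMSO replicate 2 the highest library by this median.

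Reads of some members cannot be assigned with certainty. Exons of 12 of the 42 share bases with another gene in GENCODE M21, and whether the counting used strand is not given by the labels. The longest such stretch was 1271 bases between Kif20a and Cdc23, followed by 911 between Prc1 and Rccd1, 832 between Kif4 and Pdzd11, 623 between Cdc25c and Gm3550, 592 between Ube2c and Tnnc2 and 510 between Ccna2 and Exosc9.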

How the data were processed

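RNA of 3 Vismodegib and 3 DMSO tumours had been read as pairs of 150 bases. The authors deposited RPKM values per gene symbol. The submitters' processing notes name the mm10 build and the tools STAR, HISAT2, Partek, SAMtools, cutadapt and bcl2fastq 2.17. What each tool did, the annotation and any use of strand are not given in these notes or elsewhere in the labels. RPKM divides by the library total, so each value also depends on the other genes.

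Libraries were grouped by title. The 11818 genes averaging 0.5 RPKM or more were fitted in R 4.3.3 by limma 3.58.1 (eBayes with a trend) on log2(RPKM + 0.5), with group as the single term, two-sided, with Benjamini-Hochberg adjustment over all of them. A difference means Vismodegib minus DMSO after this transformation, and for low genes it understates the change. The step was tested on simulated data. The 2 members under the filter had exact permutation tests. Lists are described by counts and medians with no test.

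Members and lists were chosen with earlier results of these data known. Values by library are given for the highest tested member of each of 9 role lists, Mki67, Top2a, the 6 members with the smallest p and members under the filter; Cdk1, Ccnb1, Ccnb2 and Cdc20 were added after their values were seen. Of each further list the gene with the smallest p is named, and Ccnd1 was added after its values were seen.

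Totals come from the spacing of low values: among totals implied by steps reaching 0.5 of the top frequency, the highest was kept, in 6992 genes with 1 transcript in GENCODE M21; then 84.3% to 85.6% of values up to 20 reads were whole within 0.02 reads. A total too high by a whole-number factor would go unseen. Reads behind a value use the longest transcript and are approximate; promoter sequences and their starts are RefSeq's (GRCm38.p6). After seeing the data, sum scaling and a fit without DMSO replicates 1 and 2 were added.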

Additional observations from a re-analysis of the deposited data

How the results depend on the processing

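No member passed under any of the 20 alternatives; the smallest adjusted p of a member was 0.121, with library weights. With these weights, whose estimation stopped short of its convergence tolerance, 306 genes were higher and 114 lower in Vismodegib. The weight was 7.28 for DMSO replicate 3 and 0.32 for each of DMSO replicates 1 and 2, so the control level in this fit rested mostly on DMSO replicate 3. The replicate block gave 1 higher gene, with no change in the members. Deviations of same-numbered libraries had correlations of 0.003, 0.04 and -0.30, and those of differently numbered libraries ran from -0.23 to 0.30. With so few libraries these cannot show whether the numbers mark pairs. Leaving out DMSO replicates 1 and 2 together gave 4 higher and 4 lower genes, with 1 member all above and 23 all below the lone control, beside 2923 genes above and 3041 below of 11818; this control is assumed to vary like the treated tumours. Leaving out 1 library gave 0 to 11 higher genes and 0 to 8 lower genes, both highest without DMSO replicate 1. The members' median was below 0 in 19 of 20 alternatives. With 1 library left out, the median ran from -0.51 without DMSO replicate 1 to 0.13 without DMSO replicate 2, and members below 0 from 39 to 10. In these fits members all above the controls ran from 0 to 1, the 1 without DMSO replicate 2, where 1325 of 11818 genes were all above. Members all below ran from 0 to 22 in the same fits, the highest count without DMSO replicate 1, where 1738 of 11818 genes were all below. Epithelial scaling moved the median to -0.72 and that of all genes to -0.51, and put 18 members and 3636 of 11818 genes below all controls. Quantile scaling put 1 member and 353 genes there.

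Of the 13 members with a printed difference, 10 changed sign somewhere; the cause was not tested. Over the 6 fits with 1 library left out, Birc5 ran from -0.0943 to 0.25, Cenpa from -0.26 to 0.43, Ckap2 from -0.32 to 0.37, Hmmr from -0.73 to 0.0195, Kif11 from -0.36 to 0.23, Mad2l1 from -0.0913 to 0.28, Nusap1 from -0.22 to 0.23, Racgap1 from -0.30 to 0.33 and Top2a from -0.85 to 0.0728. Median-ratio scaling gave -0.0252 for Cenpa, -0.0358 for Ckap2, -0.0437 for Kif11, -0.0142 for Nusap1 and -0.0473 for Racgap1. Quantile scaling gave -0.004 for Cenpa, -0.0254 for Ckap2, -0.0438 for Kif11 and -0.0285 for Racgap1. Sum scaling gave -0.0076 for Ckap2, -0.0184 for Kif11 and -0.0192 for Racgap1. With GC and length trends removed, Cenpa was at -0.0047, Ckap2 at -0.0939, Kif11 at -0.10, Mad2l1 at -0.0291, Nusap1 at -0.0825 and Racgap1 at -0.0498. Library weights gave -0.011 for Ect2, -0.32 for Kif11 and -0.0339 for Nusap1. Without DMSO replicates 1 and 2, Ect2 was at -0.20, Kif11 at -0.31 and Nusap1 at -0.12. The spread between DMSO libraries, seen in the width of the intervals, limits these results.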
